A study of Mus musculus with 14 samples.

Results

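Cytosolic ribosomal protein genes encode the proteins of the large (Rpl) and the small (Rps) subunit of the ribosome that translates nuclear mRNAs. They were chosen by symbol, with kinases of ribosomal protein S6 and pseudogenes marked -ps left out, and each was represented by its probe set with the highest mean signal. The rule found 49 genes, 26 of the large and 23 of the small subunit, among 18194 genes with a probe set of their own. Expression was measured with Affymetrix microarrays in mouse embryonic stem cells (ESC) and in embryoid bodies (EB), clumps that such cells form as they differentiate.

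The 14 arrays fell into 4 groups: TKO EB (lines 2-55-2, 14-14-4, 7-4-1, Dutch and Ta1-12), TKO ESC (lines 7-4-1, Dutch and Ta1-12), WT EB and WT ESC (wild type, each from lines B21, J1 and R1). TKO is not spelled out in the labels and was read as the triple knockout of Rb1, Rbl1 and Rbl2, since the series title names the Rb gene family. The series text calls the arrays of a group biological replicates. The sources used here give neither strain nor deleted exons nor the time of EB culture. Each line and stage has 1 array, so errors and p-values rest on the spread between lines, which here includes that of cultures and arrays. The fit pools this spread over the 4 groups and moderates it by genes of like signal. An error is therefore not the spread of the compared groups alone.

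Ribosomal proteins are made in near-equal amounts and are assembled on ribosomal RNA in the nucleolus with the help of many assembly factors. Their mRNAs are among the most abundant of dividing cells and typically begin at a cytosine followed by a run of pyrimidines, the 5′ terminal oligopyrimidine (TOP) motif, through which mTOR signalling controls their translation. A few members have paralogs with restricted expression, such as Rpl3l of mouse heart and skeletal muscle and Rpl39l of mouse male germ cells. Stem cells are known for high ribosome production that is retuned when they differentiate.

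The first bases of a transcript carry that motif, so the windows around the annotated start are shown for the paralog pair Rpl39l and Rpl39, for Rpl12, which fell most clearly in EB of both genotypes, for Rpl7l1, a second paralog that fell, and for Rplp0, a stalk protein often used as a steady control. Sequences are from RefSeq (assembly GRCm38.p6), 30 bases from 10 before to 20 after the start on the gene's strand, with capitals marking the longest run of a C followed by at least 4 further C or T that opens within 10 bases of the start. Rpl39 also holds a shorter run of this kind in lower case, which opens upstream of the start and ends on the start base. Rpl12 and Rplp0 hold short runs in lower case that open further downstream, outside the stretch searched.
Rpl39l: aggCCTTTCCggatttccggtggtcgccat
Rpl39: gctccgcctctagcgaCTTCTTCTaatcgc
Rpl12: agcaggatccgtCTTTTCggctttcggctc
Rpl7l1: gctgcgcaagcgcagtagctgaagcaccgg
Rplp0: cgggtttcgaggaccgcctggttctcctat
The windows lie at chr16:10170218-10170247 (plus strand) for Rpl39l, chrX:37085203-37085232 (minus) for Rpl39, chr2:32961702-32961731 (plus) for Rpl12, chr17:46782637-46782666 (minus) for Rpl7l1 and chr5:115559457-115559486 (plus) for Rplp0. The longest run had 7 bases in Rpl39l, 8 in Rpl39 and 6 in Rpl12, and no such run opened in the stretch searched of Rpl7l1 and Rplp0. The longest run of Rpl39l ended on the base before the annotated start, and those of Rpl39 and Rpl12 opened after it. Searched on the gene's strand only, such a run was present in 27 of the 43 members with an entry (62.8%). Over the whole table it was present in 9007 of 27025 genes (33.3%). A run of at least 7 bases was present in 21 of the 43 members (48.8%), against 13.6% of all genes. A match describes these letters and is not a measured start.

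Array medians lay between 83.2 and 107.9 intensity units. Summed signal of 7 markers of pluripotent cells ran from 4649 to 53569 units in TKO EB (median 10915) and from 70789 to 76801 units in TKO ESC. In WT cells the sums ran from 2913 to 4016 units in EB and from 53358 to 75907 units in ESC. Most of the low EB sums was the marker Sox2, with 3479, 3600 and 2378 units in WT EB of lines B21, J1 and R1. Sox2 also gave 4485 of the 4649 units in TKO EB of line Ta1-12. Pou5f1, a factor of pluripotent cells, had 7410 units in TKO EB of line Dutch and 6133 in 14-14-4, against 1542, 147 and 17.1 in the other TKO EB arrays. Of the Rb family, Rb1 had 116 to 913 units in TKO arrays, against 138 to 1018 in WT arrays, and Rbl2 had 297 to 1099 units in TKO arrays, against 411 to 1727 in WT arrays, so both overlapped. Rbl1 had 15.9 to 38.3 units in the arrays of TKO lines 2-55-2, 14-14-4 and 7-4-1. It had 377 (EB) and 250 (ESC) units in line Dutch and 1096 (EB) and 493 (ESC) units in the arrays labelled TKO Ta1-12, against 356 to 1090 units in WT arrays. The sources used here do not say whether the probe sets of these 3 genes lie in deleted sequence, so none of them settles the labels. Results for TKO cells are therefore also given without line Ta1-12.

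Ribosomal protein genes filled the top of every array. Their median signal was 17676 to 19199 units, while the brightest probe set of an array had 23976 to 25702. Between 46 and 47 of the 49 members lay above the array median, and 35 to 37 lay within 1 log2 unit of the brightest probe set, which 0.718% to 0.80% of all probe sets did. Each member is represented by its brightest own probe set, whereas that share and the array median cover every probe set. The choice of the brightest favours high counts of members. Among the 100 genes with the highest signal on an array, 34 to 36 were members. Among genes with a probe set of their own, Rps29, a small zinc-binding protein of the small subunit, was the brightest on 9 arrays, Rpl4 on 3 and Rpl13a on 2. Over all probe sets, the brightest was one shared by Rpl23 and other names on 7 arrays, one shared by Rpl13a and another name on 4 and that of Rps29 on 3. Signal is the brightness of a probe set and gives no order of transcript abundance between genes. In bulk samples, fewer cells of a type and less RNA per cell cannot be told apart.

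**Figure D1:**
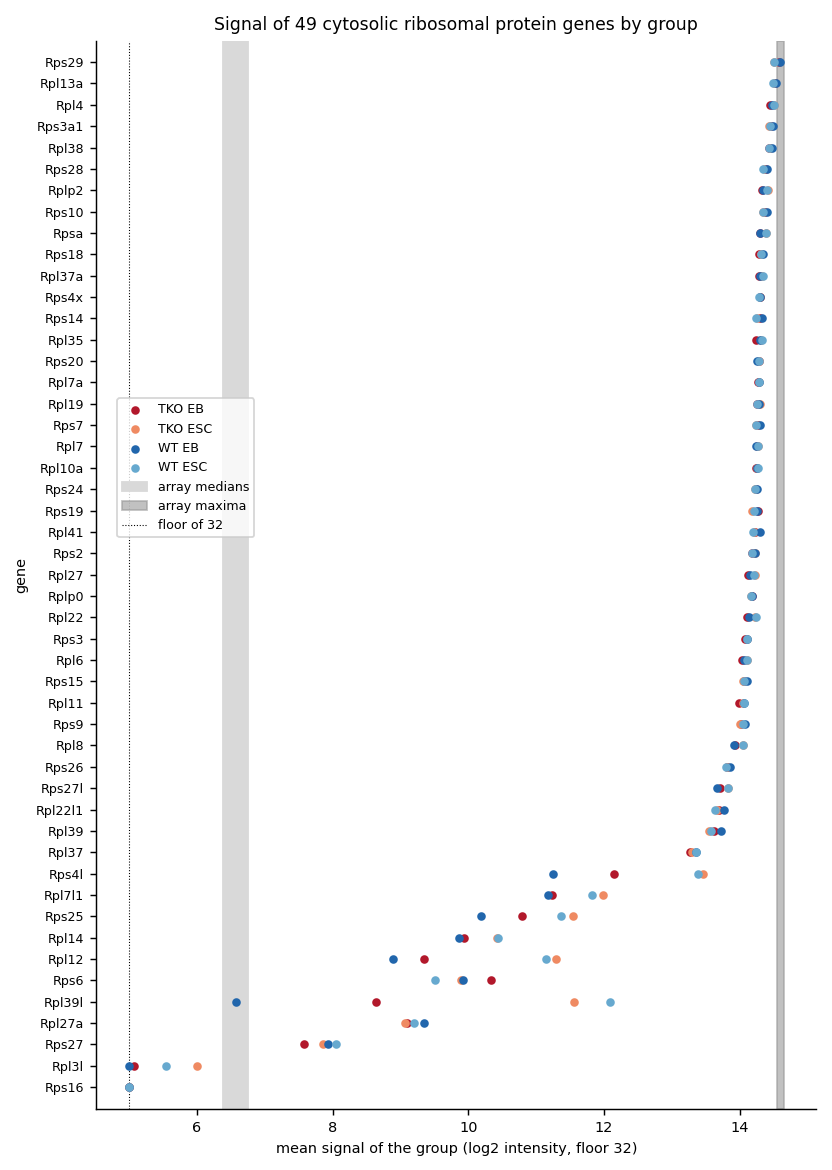
Mean signal of each of the 49 genes in each group (points, log2 intensity with a floor of 32), with grey bands for the range of the 14 array medians and array maxima and a dotted line at the floor. Most genes sit in a narrow column at the right edge with the 4 groups on top of each other, and the groups come visibly apart for some of the 11 genes at the bottom.

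Above the array median, the members' median stood at 7.61 ± 0.069 log2 units in TKO EB (SD, n = 5) and 7.77 ± 0.056 in TKO ESC (n = 3), and at 7.52 ± 0.14 in WT EB and 7.73 ± 0.041 in WT ESC (n = 3 each). The EB arrays were thus lower at both genotypes on this scale. Without subtracting the array median, the members' median was 14.17 ± 0.047 in TKO EB and 14.20 ± 0.0065 in TKO ESC, and 14.18 ± 0.030 in WT EB and 14.19 ± 0.014 in WT ESC. On that scale the groups lay within 0.03 log2 units of one another, so the difference between stages sat in the array medians, which averaged 6.56 in TKO EB and 6.43 in TKO ESC, and 6.67 in WT EB and 6.46 in WT ESC.

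The brightest own probe sets of the 38 tested members with a mean of at least 13 on the log2 scale varied little. Their SD over all 14 arrays ran from 0.022 to 0.14 with a median of 0.048, against a median of 0.143 for all 285 genes of that signal and 0.493 for all genes tested. Rplp0, the base protein of the ribosomal stalk, had 18332, 19244, 19031, 17306 and 18703 units in TKO EB of lines 14-14-4, 2-55-2, 7-4-1, Dutch and Ta1-12, and 18541, 18745 and 18158 in TKO ESC of lines 7-4-1, Dutch and Ta1-12. Rplp0 had 18181, 18626 and 18729 units in WT EB and 18398, 18491 and 18077 in WT ESC of lines B21, J1 and R1. The 4 groups overlap, and its fitted differences were 0.00 ± 0.04 between TKO EB and TKO ESC and 0.01 ± 0.05 between WT EB and WT ESC (log2, SE).

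Other members with a known special role also differed little in size, though not all of their groups overlapped. The difference between EB and ESC was -0.09 ± 0.03 log2 units in TKO and -0.06 ± 0.04 in WT cells for Rplp2, a mobile stalk protein (adjusted p = 0.0577 and 0.22, limma). For Rpsa, also known as the laminin receptor, both differences were -0.08 (SE 0.04 and 0.05). Rpl11, which binds Mdm2 when ribosome assembly fails, showed -0.06 ± 0.04 and -0.01 ± 0.04. Rps19, the gene most often mutated in human Diamond-Blackfan anaemia, showed 0.09 ± 0.04 and 0.05 ± 0.04. Rpl38, mutated in the mouse strain Tail short, showed -0.01 ± 0.04 and 0.04 ± 0.04. None of these passed the threshold of an adjusted p of 0.05. The arrays of EB lay below those of ESC without overlap for Rplp2 at both genotypes, for Rpl11 in TKO cells and for Rpsa in WT cells. These probe sets lie close to the upper end of the scale, and whether that end narrows their differences was not tested.

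Other own probe sets of the same genes did not all show this evenness. A further 35 of them with means of at least 13 differed between EB and ESC by -0.25 to 0.21 log2 units in TKO and by -0.33 to 0.10 in WT cells. Under 13 there were 17, of 11 genes, and 8 of these, of 6 genes, were lower in EB by more than 1 log2 unit at both genotypes, while 0 were higher by as much. Those 8 had means of 6.15 to 9.23 and belonged to Rpl35, Rpl41, Rps9, Rps10, Rps18 and Rps24, named after their values were seen. That of Rps24 among them differed by -2.09 in TKO and -2.19 in WT cells, and that of Rps10 by -2.10 and -1.92. Rpl35 showed -1.81 and -1.80, Rpl41 -2.0 and -1.32, and Rps9 -1.58 and -1.21. The 3 dim probe sets of Rps18 differed by -1.98 to -1.36 in TKO and by -2.18 to -1.01 in WT cells. Others of the 17 were higher in EB, such as that of Rpl22 (mean 11.98) by 0.97 in TKO and 0.75 in WT cells. That of Rps3 (mean 10.44) was higher by 0.62 and 0.27. The share of all dim probe sets that fell as much was not worked out, so the 8 cannot be set against a background. All these are differences of group means without a test, and the counts of members below rest on the brightest probe set of each gene.

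In TKO EB against TKO ESC, 6 of the 48 tested members fell and 0 rose, and 10 had an unadjusted p under 0.05. Over all 14365 genes tested, 35.7% were called in this comparison, 20.8% higher and 14.9% lower. The members' median difference was -0.02 log2 units, against 0.08 over all genes tested. The 6 were Rpl12, Rpl39l, Rps4l, Rpl3l, Rpl7l1 and Rpl22. Rpl3l is counted among them although the floor set most of its EB values. With the line as a fixed block over the 12 arrays of paired lines, 1 member was called lower (22.0% of genes called), and 1 was called lower without line Ta1-12 (21.4% of genes called). That gene was Rpl12 both times. Without line Ta1-12, the others differed by -2.15 (Rpl39l, adjusted p = 0.187), -1.08 (Rps4l, adjusted p = 0.158), -0.73 (Rpl3l, adjusted p = 0.0891), -0.64 (Rpl7l1, adjusted p = 0.0806) and -0.11 (Rpl22, adjusted p = 0.086). Among the 38 members of at least 13 on the log2 scale, 1 was called (Rpl22), against 31.2% of all genes of that signal. Without overlap between TKO EB and TKO ESC arrays, 1 member was higher and 10 were lower in TKO EB, against 21.1% and 14.6% of all genes (35.7% in both directions).

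In WT EB against WT ESC, 7 of 48 members fell and 1 rose, and 8 had an unadjusted p under 0.05. Over all genes 43.6% were called, 26.2% higher and 17.4% lower. The members' median difference was 0.01 log2 units, against 0.13 over all genes. Among the 38 abundant members 3 were called (Rpl22, Rpl8 and Rpl39), against 40.7% of all genes of that signal. The arrays did not overlap for 8 members higher and 10 lower in WT EB, against 35.1% and 25.2% of all genes (60.2% in both directions). The genes that fell were Rpl12, Rpl39l, Rps4l, Rps25, Rpl7l1, Rpl22 and Rpl8, and Rpl39 rose. With the line as a fixed block, 4 were called lower and 0 higher (37.4% of genes called). When every array was centred on its own median, which moved the median difference of all genes to -0.07, 19 members were called lower and 0 higher, so the direction of the abundant members depends on the scaling.

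**Figure D2:**
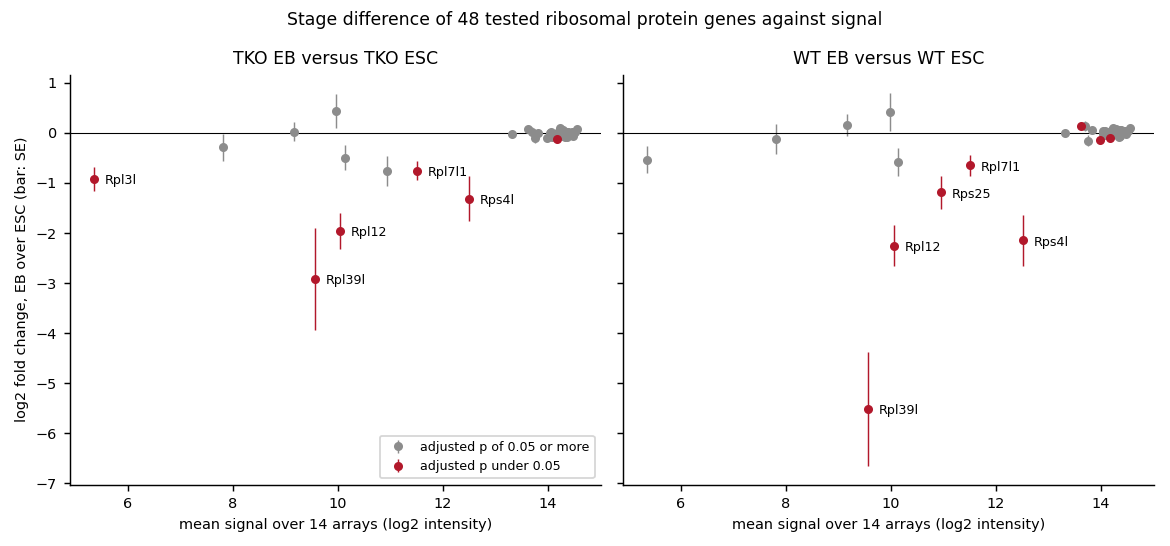
Log2 fold change of EB over ESC (vertical axis, bars are standard errors) against mean signal over 14 arrays (horizontal axis, log2 intensity) for the 48 tested genes, in TKO cells (left) and WT cells (right), with red for an adjusted p under 0.05. The abundant genes form a tight cluster at 0, and the named red points below it reach -2.92 in TKO and -5.52 in WT cells, both for Rpl39l.

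Of the paralogs with -like names, Rpl39l varied most of all members. Rpl39l had 401 units in TKO EB of line 2-55-2, 369 in 14-14-4, 136 in 7-4-1, 6158 in Dutch and 83 in the array labelled Ta1-12, against 2170, 3208 and 3991 units in TKO ESC of lines 7-4-1, Dutch and Ta1-12. Rpl39l had 106, 86 and 96 units in WT EB of lines B21, J1 and R1, against 6187, 5027 and 2684 units in WT ESC. The WT groups were far apart with no overlap, whereas 1 TKO EB array, of line Dutch, was above all 3 TKO ESC arrays.

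The fitted difference of Rpl39l between WT EB and WT ESC was -5.52 ± 1.13 log2 units (adjusted p = 0.00258, limma), and it passed the threshold under all 25 alternatives. Between TKO EB and TKO ESC it was -2.92 ± 1.01 (adjusted p = 0.0396). That call was lost when any of 9 arrays was left out (TKO EB 2-55-2, 14-14-4, 7-4-1 or Ta1-12, any TKO ESC array, WT EB B21 or WT ESC J1), with differences of -3.16 to -2.35 and adjusted p of 0.0506 to 0.12. With the line as a fixed block it was -2.88 (adjusted p = 0.102), and with no filter on dim genes its adjusted p was 0.0723. Within lines, EB minus ESC was -4.0 in 7-4-1, 0.94 in Dutch and -5.58 in Ta1-12, and -5.87, -5.86 and -4.81 in B21, J1 and R1.

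Rps4l is a paralog of the small subunit gene Rps4x that RefSeq lists on chromosome 6 with a biotype other than protein coding. Rps4l had 3038, 7574, 3468, 10121 and 2404 units in TKO EB of lines 2-55-2, 14-14-4, 7-4-1, Dutch and Ta1-12, against 11733, 10803 and 11374 in TKO ESC. It had 1552, 1853 and 4957 units in WT EB, against 11273, 11211 and 9828 in WT ESC. Every EB array lay below every ESC array of its genotype, and the TKO EB arrays of Dutch and 14-14-4 stood closest to the ESC arrays.

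The difference of Rps4l was -1.31 ± 0.45 log2 units in TKO cells (adjusted p = 0.0389, limma) and -2.15 ± 0.51 in WT cells (adjusted p = 0.00533). The WT call held under all 25 alternatives. The TKO call was lost when any of 8 arrays was left out (TKO EB 2-55-2, 7-4-1 or Ta1-12, any TKO ESC array, WT ESC J1 or R1), with differences of -1.35 to -1.08 and adjusted p of 0.05 to 0.103. With the line as a fixed block it was -1.37 (adjusted p = 0.0853), and with no filter its adjusted p was 0.0711. Within lines it was -1.76, -0.09 and -2.24 in TKO lines 7-4-1, Dutch and Ta1-12, and -2.86, -2.60 and -0.99 in WT lines B21, J1 and R1.

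**Figure D3:**
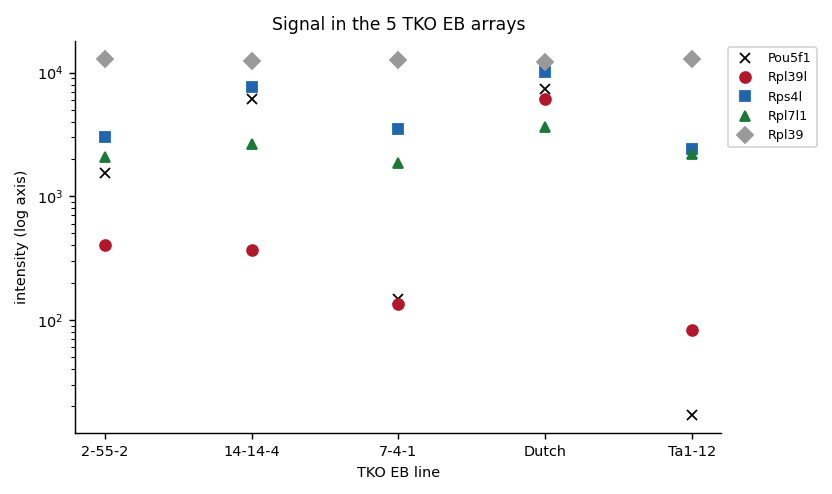
Intensity on a log axis of Rpl39l, Rps4l, Rpl7l1, Rpl39 and the pluripotency factor Pou5f1 in each of the 5 TKO EB arrays, 1 symbol per gene. Rpl39 is level at 12147 to 12973 units, Pou5f1 is high in both 14-14-4 and Dutch, and Rpl39l is high in Dutch alone.

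The TKO EB arrays of lines Dutch and 14-14-4 had the most Rps4l and the most Pou5f1, while Rpl39l was high in Dutch alone. Rpl12 and Rpl7l1 were also highest in Dutch and 14-14-4, whereas Rps25 was not. Over all TKO EB arrays, neither Rps4l nor Rpl39l followed the order of Pou5f1 exactly. Line 14-14-4 had 6133 units of Pou5f1 and 37923 units of summed pluripotent markers with 369 units of Rpl39l, while Dutch had 7410 and 53569 units with 6158 units of Rpl39l. Mesenchyme markers summed to 46959 units in 14-14-4 and 21786 in Dutch, against 70559 to 95409 in the other TKO EB arrays. The part of these cell types in the signals of these genes was not tested.

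Rpl7l1, a relative of the yeast assembly factor Rlp7, had 2081, 2651, 1860, 3598 and 2186 units in TKO EB of lines 2-55-2, 14-14-4, 7-4-1, Dutch and Ta1-12, against 3777, 3885 and 4579 in TKO ESC. It had 1966, 2225 and 2832 units in WT EB, against 3739, 3787 and 3385 in WT ESC. The stages did not overlap at either genotype. The differences were -0.76 ± 0.19 log2 units in TKO cells (adjusted p = 0.0097, limma) and -0.65 ± 0.22 in WT cells (adjusted p = 0.0286). The TKO call was lost without TKO ESC Ta1-12 (-0.67, adjusted p = 0.0505) and with the line as a fixed block (-0.73, adjusted p = 0.0647). The WT call was lost without WT EB B21 or J1 or WT ESC B21 or J1 (-0.63 to -0.53, adjusted p 0.0699 to 0.109) and with the block (-0.65, adjusted p = 0.0662). With the mean of all 3 probe sets of Rpl7l1 it was -0.28 (adjusted p = 0.232). Its other probe sets changed by -0.76 and -0.64 in TKO cells but only by -0.13 and -0.04 in WT cells.

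Rpl3l, the striated muscle paralog of Rpl3, was near the floor of 32 units everywhere. It had 42 units in TKO EB of line Dutch and under 32 in the other 4, against 69, 47 and 81 units in TKO ESC, and it was under 32 in all WT EB arrays, against 61, 51 and 25 units in WT ESC. The floored difference was -0.92 ± 0.24 log2 units in TKO cells (adjusted p = 0.0104, limma) and -0.54 ± 0.27 in WT cells (adjusted p = 0.12). Both sizes depend on the floor, which raised most EB values and, in WT cells, the ESC value of line R1. The floor also narrowed the spread of Rpl3l in EB, to an SD of 0 in WT EB and 0.18 in TKO EB, and so the pooled error. Apart from TKO EB of line Dutch, only ESC arrays had values above the floor. The adjusted p therefore gives no firm support for a fall of Rpl3l. The TKO call was lost without TKO ESC Ta1-12 (-0.75, adjusted p = 0.0585), with the line as a fixed block (-0.87, adjusted p = 0.103) and at a floor of 64 (-0.15, adjusted p = 0.095).

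The remaining paralogs were abundant. Rpl22l1 had 11221 to 14293 units in TKO EB and 11817 to 14225 units in TKO ESC, with 13010 to 14958 units in WT EB and 12027 to 13895 units in WT ESC. Rps27l, a target of p53 in human cells, had 10744 to 15171 units in TKO EB and 13987 to 15074 units in TKO ESC, with 12310 to 14196 units in WT EB and 14142 to 14897 units in WT ESC. The groups overlapped for Rpl22l1 at both genotypes, and the fitted differences were 0.02 ± 0.09 in TKO and 0.13 ± 0.10 in WT cells for Rpl22l1 and -0.11 ± 0.10 and -0.16 ± 0.11 for Rps27l.

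The parents Rpl39, Rps4x and Rpl7 differed less between EB and ESC than their paralogs Rpl39l, Rps4l and Rpl7l1. Rpl39, at the polypeptide exit tunnel, had 12147 to 12973 units in TKO EB and 11915 to 12128 in TKO ESC, and 12976 to 14155 units in WT EB and 11968 to 12622 in WT ESC. The difference was 0.07 ± 0.05 log2 units in TKO cells and 0.14 ± 0.05 in WT cells (adjusted p = 0.0384, limma), and the WT value turned to -0.06 after centring the arrays and was 0.07 (adjusted p = 0.303) after quantile normalization. The WT call was also lost without WT EB B21 or J1, any WT ESC array or TKO ESC Dutch (0.11 to 0.17, adjusted p 0.0503 to 0.141) and with the line as a fixed block (0.14, adjusted p = 0.113). Rps4x, the parent of Rps4l, had 19070 to 20657 units in TKO EB and 19641 to 20716 units in TKO ESC, with 19692 to 20580 units in WT EB and 19862 to 20137 units in WT ESC. Rpl7, the parent of Rpl7l1, differed between EB and ESC by -0.02 ± 0.05 log2 units in TKO and -0.03 ± 0.06 in WT cells. Rps27, the parent of Rps27l, had a dim own probe set (mean 7.81 on the log2 scale). It differed by -0.29 ± 0.27 in TKO and -0.13 ± 0.30 in WT cells, errors that span the values of Rps27l. Rpl3, the parent of Rpl3l, has no probe set of its own and was not compared.

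Rpl22, whose loss in mice blocks a class of T cells, had 17192 to 18064 units in TKO EB, against 18894 to 19468 in TKO ESC. It had 17697 to 18362 units in WT EB, against 19009 to 19706 in WT ESC. The stages did not overlap although they were -0.12 ± 0.03 log2 units apart in TKO cells (adjusted p = 0.0207, limma) and -0.10 ± 0.04 in WT cells (adjusted p = 0.0462). The TKO call was lost without TKO ESC 7-4-1 or Ta1-12 (-0.11 for both, adjusted p 0.066 and 0.0795) and with the line as a fixed block (-0.11, adjusted p = 0.161). The WT call was lost without any 1 of 11 arrays (any WT array, any TKO ESC array, TKO EB 2-55-2 or 7-4-1; -0.12 to -0.09, adjusted p 0.0501 to 0.145) and with the block (-0.10, adjusted p = 0.139). A second probe set of Rpl22 changed by -0.19 in TKO and -0.23 in WT cells, and another, dimmer one by 0.97 and 0.75, so the probe sets disagree. Rpl8, named here after its values were seen, lay at 15256 to 15596 units in WT EB and 16381 to 17721 in WT ESC (-0.13 ± 0.05, adjusted p = 0.0393, limma). The Rpl8 call was lost without any WT EB array, WT ESC B21 or J1, or TKO ESC 7-4-1 or Dutch (-0.14 to -0.10, adjusted p 0.0505 to 0.151), without line Ta1-12 (adjusted p = 0.0508) and with the line as a fixed block (adjusted p = 0.101).

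**Figure D4:**
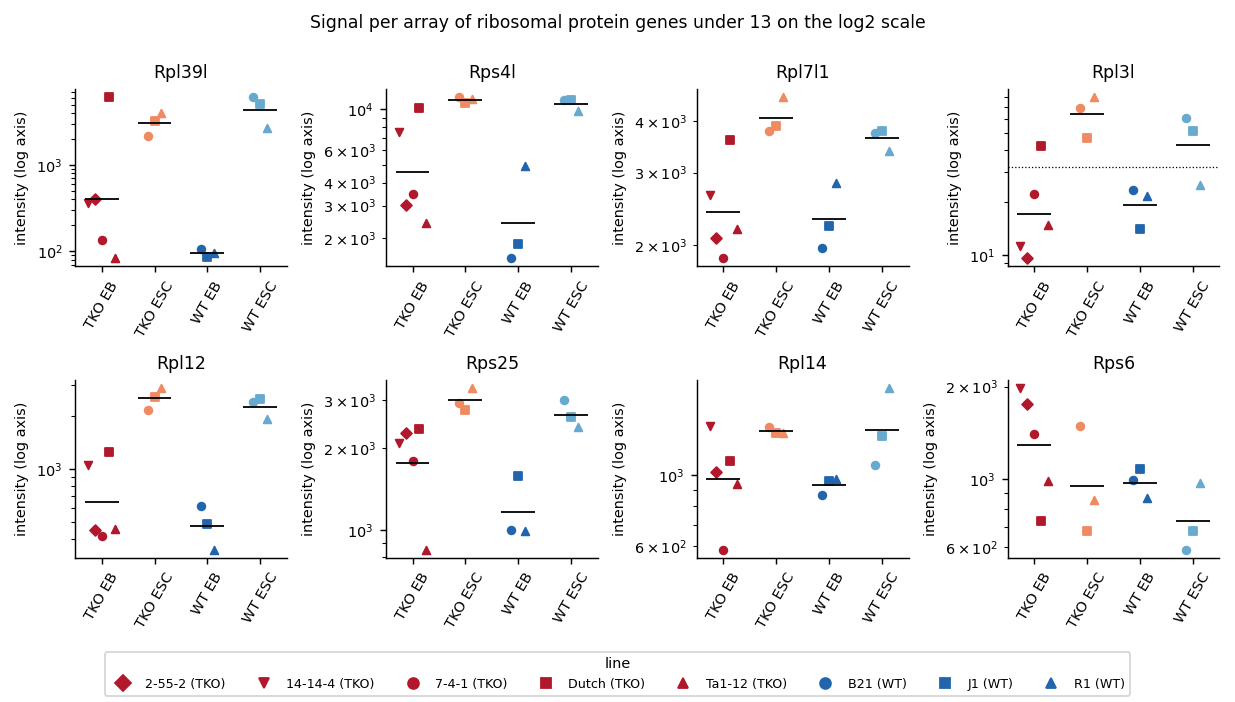
Intensity on a log axis of 8 of the 11 genes under 13 on the log2 scale in every array, by group, with 1 symbol per cell line and a bar at the mean of the log values; the dotted line for Rpl3l marks the floor of 32. Rpl39l, Rpl12 and Rps4l show the wide gap between EB and ESC, and Rps6 shows none.

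Rpl12, which holds the stalk to the large subunit, fell in EB of both genotypes under every alternative run. Rpl12 had 451, 1054, 419, 1254 and 458 units in TKO EB of lines 2-55-2, 14-14-4, 7-4-1, Dutch and Ta1-12, against 2148, 2567 and 2884 in TKO ESC. It had 620, 488 and 350 units in WT EB, against 2395, 2502 and 1916 in WT ESC. All EB arrays lay below all ESC arrays. The difference was -1.96 ± 0.36 log2 units in TKO cells (adjusted p = 0.00163, limma) and -2.25 ± 0.40 in WT cells (adjusted p = 0.00124), and both calls held under all 25 alternatives.

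Probe sets that carry the name disagreed. That of Rpl12 alone had a mean of 10.05 on the log2 scale, and 2 that name Rpl12 together with other genes had means of 13.96 and 14.31 and changed by -0.06 and -0.08 in TKO and by -0.06 and -0.06 in WT cells. The sources used here do not say which transcripts each of them reads.

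Rps25, which yeast can do without, showed the same split. Rps25 had 2271, 2086, 1794, 2363 and 851 units in TKO EB of lines 2-55-2, 14-14-4, 7-4-1, Dutch and Ta1-12, against 2928, 2759 and 3331 in TKO ESC. It had 1005, 1582 and 999 units in WT EB, against 3001, 2610 and 2387 in WT ESC. The TKO EB array labelled Ta1-12 lay below the WT EB arrays, and the other 4 lay above them. The difference between stages was -0.76 ± 0.29 log2 units in TKO cells (adjusted p = 0.058, limma) and -1.19 ± 0.33 in WT cells (adjusted p = 0.0116), the WT call holding under all 25 alternatives. Its shared probe set had a mean of 14.03 and changed by 0.01 and 0.02.

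Of the 11 members under 13 on the log2 scale, 4 were -like paralogs without a shared probe set (Rpl39l, Rps4l, Rpl7l1 and Rpl3l). The other 7 (Rpl12, Rpl14, Rpl27a, Rps6, Rps16, Rps25 and Rps27) all had a shared probe set at 13 or above. Rps6, the target of S6 kinase, had 731 to 1982 units in TKO EB and 677 to 1492 units in TKO ESC, with 868 to 1075 units in WT EB and 590 to 974 units in WT ESC, with overlap at both genotypes and differences of 0.43 ± 0.34 and 0.42 ± 0.38 log2 units. Rps16 was under 32 units on every array with its own probe set, which left it untested, while its shared probe sets had means of 14.24 and 14.37. A further 27 ribosomal symbols, Rpl3, Rpl5, Rpl10, Rpl24, Rplp1 and Rps27a among them, sit only on probe sets shared with other genes and are not members.

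Between TKO EB and WT EB, limma called 0 of 14365 genes (0% of all genes, 2034 at an unadjusted p under 0.05) and 0 of 48 members. 1 member, Rpl39, had an unadjusted p under 0.05, with -0.11 ± 0.05 log2 units. Arrays of the groups did not overlap for 3 members (Rpl11, Rpl39 and Rps18, all lower in TKO EB, the last chosen after its values were seen), and 3.88% of all genes did not overlap, 3.05% lower and 0.835% higher. Rpl39l differed by 2.07 ± 1.01 log2 units (adjusted p = 0.374), Rps4l by 0.91 ± 0.45 (adjusted p = 0.377) and Rps25 by 0.60 ± 0.29 (adjusted p = 0.373). Without line Ta1-12, 7.66% of genes were called, and Rps25 was the only member among them, at 0.86 (adjusted p = 0.0205).

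Between TKO ESC and WT ESC, limma called 0 genes (394 at an unadjusted p under 0.05) and 0 members, of which 0 had an unadjusted p under 0.05. The arrays did not overlap for 1 member, Rps28 at 0.02 log2 units (named after its values were seen), against 11.5% of all genes, 4.64% higher and 6.84% lower. Rpl39l differed by -0.53 ± 1.13 log2 units, Rps4l by 0.07 ± 0.51 and Rpl12 by 0.16 ± 0.40. The test of whether the EB to ESC difference itself differed between genotypes called 0 genes (522 at an unadjusted p under 0.05) and 0 members. That difference of differences, TKO minus WT, was 2.60 ± 1.52 for Rpl39l and 0.83 ± 0.68 for Rps4l (adjusted p = 0.975 for both).

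Most genes that build ribosomes fell in EB at both genotypes. Of 62 tested ribosome biogenesis genes, 54 fell in TKO EB against TKO ESC and 0 rose, with a median of -1.05 log2 units. In WT EB against WT ESC 55 fell and 0 rose, with a median of -1.19. Over all genes, 14.9% fell in TKO and 17.4% in WT cells. Bop1, of the large subunit's PeBoW complex, fell by 1.91 ± 0.21 in TKO (adjusted p = 7.95e-05, limma) and fell by 1.89 ± 0.24 in WT cells (adjusted p = 2.05e-04). Rrp12, needed for export of pre-ribosomes in yeast, fell by 2.35 ± 0.29 in TKO and fell by 2.38 ± 0.32 in WT cells. Nat10, which acetylates ribosomal RNA, fell by 1.79 ± 0.23 in TKO cells, and Ncl, the nucleolar protein nucleolin, fell by 0.76 ± 0.09 in WT cells. Under the alternatives 45 to 58 fell in TKO and 51 to 60 in WT cells, and without line Ta1-12 the TKO count was 45.

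RNA polymerase I genes, which transcribe ribosomal RNA, showed the same direction. Of 15, 11 fell in TKO EB (median -0.92 log2 units) and 8 in WT EB (median -0.86), against 14.9% and 17.4% of all genes. Among the 15, 0 rose. Polymerase I subunits Polr1b (-1.52 ± 0.29 in TKO, -1.62 ± 0.32 in WT) and Polr1e (-1.43 ± 0.25 and -1.31 ± 0.28) fell at both genotypes. The promoter factor Taf1c fell by 1.38 ± 0.23 in TKO cells, and Taf1d fell by 1.78 ± 0.37 in WT cells. The TKO count was 5 without line Ta1-12 (21.4% of all genes called). It was 7 without TKO ESC 7-4-1 (25.1%) or with the line as a fixed block (22.0%).

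Genes whose mRNAs share the TOP start or the work of translation had medians nearer 0. Of 22 translation factors and other TOP mRNAs, 5 fell and 2 rose in TKO EB (median -0.11 log2 units), and 8 fell and 1 rose in WT EB (median -0.15). Over all genes tested, 35.7% were called in TKO cells (20.8% higher, 14.9% lower) and 43.6% in WT cells (26.2% higher, 17.4% lower). The number called was thus near the background, though a larger share fell and a smaller share rose. Eef1d, of the elongation factor exchange complex, fell by 0.39 ± 0.09 in TKO and fell by 0.38 ± 0.10 in WT cells. Vim, an intermediate filament protein of mesenchyme, rose by 2.02 ± 0.26 and by 1.87 ± 0.29. Nap1l1, a histone chaperone, fell by 0.51 ± 0.10 in WT cells, and Eif3f, of initiation factor 3, rose by 0.20 ± 0.05 in TKO cells. These counts rest on single arrays. The TKO count of falls was 1 without TKO ESC 7-4-1 or Ta1-12, 2 without TKO ESC Dutch, without line Ta1-12 or with the fixed block, 3 without TKO EB 2-55-2, TKO EB 7-4-1 or WT ESC R1, and 9 without TKO EB Dutch. The WT count was 2 without WT ESC J1, 3 without WT EB B21, 4 without WT EB J1, 5 without WT ESC B21 and 14 after centring the arrays.

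Of 76 mitochondrial ribosomal protein genes, 28 fell and 3 rose in TKO EB, and 27 fell and 4 rose in WT EB, with medians of -0.35 log2 units for both. Over all genes, 35.7% were called in TKO cells (20.8% higher, 14.9% lower) and 43.6% in WT cells (26.2% higher, 17.4% lower). The number called was thus near the background, though a larger share fell and a smaller share rose. Mrps27 fell by 1.03 ± 0.18 in TKO and fell by 1.15 ± 0.21 in WT cells, and Mrps5 fell by 1.51 ± 0.29 in WT cells. The TKO count of falls was 8 without line Ta1-12 (21.4% of all genes called) and 9 with the line as a fixed block (22.0%). It was 18 without TKO ESC 7-4-1 (25.1%). The WT count of falls was 17 without WT EB B21 (31.9%) and 15 without WT ESC B21 (32.8%). Counts of rises ran from 1 to 3 in TKO and from 0 to 5 in WT cells under the alternatives. Of 10 genes of the Myc family and its partners, which drive or restrain ribosome production, 2 rose and 2 fell at each genotype, near the 35.7% (TKO) and 43.6% (WT) of all genes called, and 1 rose in TKO EB without TKO ESC 7-4-1 or Ta1-12. Mycn fell by 1.68 ± 0.35 in TKO cells, and Mga fell by 1.23 ± 0.17 in TKO and fell by 1.05 ± 0.19 in WT cells. Mxd4, an antagonist of Myc, rose by 3.15 ± 0.50 and by 4.06 ± 0.56, and Mxd1 by 1.49 ± 0.38 in WT cells. All 5 lists had 0 called genes in the comparisons of TKO with WT cells and in the difference of differences. Without the TKO EB array labelled Ta1-12, TKO EB against WT EB had 6 ribosome biogenesis genes, 1 mitochondrial ribosomal protein gene and 1 gene of the TOP list called higher, and 1 RNA polymerase I gene and 2 Myc family genes called lower. In that setting 9.9% of all genes were called, so the count of biogenesis genes is near the background.

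**Figure D5:**
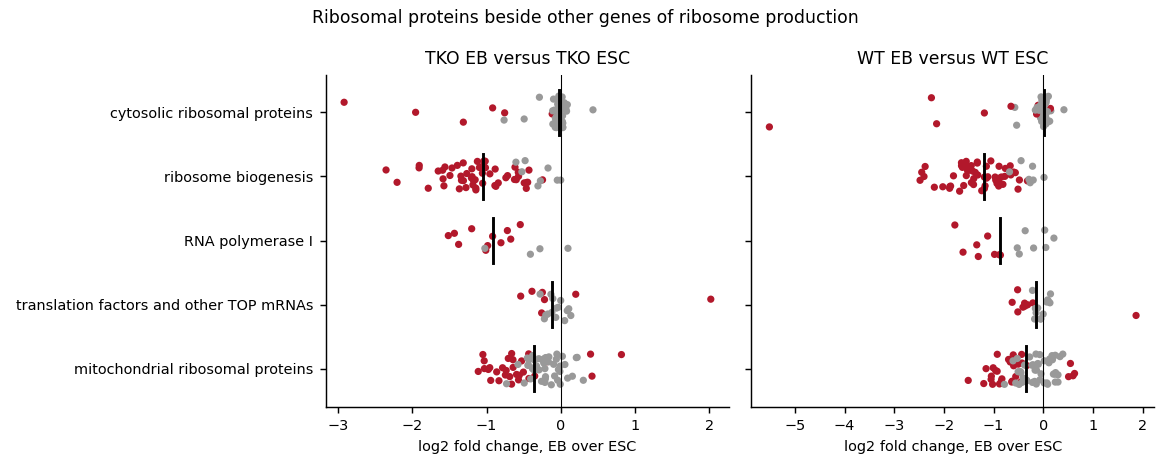
Log2 fold change of EB over ESC for each tested gene of 5 lists (points, red for an adjusted p under 0.05, grey otherwise; thick bars are list medians) in TKO cells (left) and WT cells (right). Ribosomal proteins cluster at 0 apart from a few paralogs and dim genes, while ribosome biogenesis genes spread to the left around medians of -1.05 and -1.19.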

How the data were processed

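Per the labels, Affymetrix arrays received biotin-labelled RNA isolated with Trizol. The deposited table gives linear intensity for 45101 probe sets on 14 arrays (0.596 to 25702). The sources used here do not give the authors' background correction, scaling or summary method. Columns were matched to groups by sample titles. Intensities under 32 were raised to 32 and log2 taken. Of the probe sets, 34958 had 1 gene symbol, 932 several and 9211 none in the platform annotation. A gene was tested if 3 or more arrays had its probe set over their 40th percentile (14365 genes).

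The means of the 4 groups were estimated jointly from the 14 arrays in R 4.3.3 by limma 3.58.1 (eBayes with trend, two-sided), with Benjamini-Hochberg adjustment over all genes in each of 5 comparisons and a threshold of 0.05. The procedure was tested on simulated data. The number of arrays limits the precision. Named members were the -like paralogs and their parents, genes with a known special role, up to 4 called higher and 4 lower per comparison, the 3 brightest and 3 dimmest, and the 3 most variable, with up to 3 genes of each other list. Members and lists were chosen with earlier results of these data known.

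ESC and EB arrays of one line come from the same cell line, so line names pair 12 arrays. Correlations of their deviations from group means were 0.066 (7-4-1), 0.196 (Dutch), 0.09 (Ta1-12), -0.046 (B21), -0.078 (J1) and -0.037 (R1). Alternatives were scaling, floor, filter, choice of probe sets, leaving out arrays or lines, and line as a block. A planned comparison of the paralogs' proteins was not run, since no protein table was used here.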

Additional observations from a re-analysis of the deposited data

Results flagged for a closer look

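In groups of 5 arrays a single array was marked where its gap to the nearest other array took up most of the group's range, which chance does in about 1 in 20 groups. This concerned 3 genes in TKO EB. Rpl22l1 had 11221 units in line 14-14-4, against 13383 to 14293 in the other 4. Rpl3l had 42.0 units in line Dutch, with the other 4 under the floor of 32, and with 4 values tied at the floor any value above it is marked. Rps25 had 851 units in the array labelled Ta1-12, against 1794 to 2363 in the other 4.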

How the results depend on the processing

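The scale of the arrays decides the direction of the abundant members. Centring each array on its median moved the median difference of all genes between EB and ESC to -0.04 in TKO (0.08 as deposited) and -0.07 in WT cells (0.13 as deposited), and quantile normalization moved it to -0.04 and -0.07. After centring, 12 members were lower in TKO EB (35.8% of all genes called) and 19 were lower and 0 higher in WT EB (43.6%), and the members' median differences were -0.153 (TKO EB against TKO ESC), -0.197 (WT EB against WT ESC), 0.087 (TKO EB against WT EB) and 0.0499 (difference of differences). After quantile normalization, the WT EB median was -0.036 and 0 members were higher (45.3%). Centring turned Rpl39 in WT EB to -0.061 and Rps4x to -0.182 (adjusted p = 0.0357). With the mean of all probe sets of a gene, 11 members were lower at each genotype (36.5% of all genes called in TKO and 43.7% in WT cells), and Rpl22 turned to 0.22 in TKO and 0.139 in WT cells.

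Without line Ta1-12, 1 member was lower in TKO EB against TKO ESC (21.4% of all genes called), 0 were higher in WT EB against WT ESC (45.1%) and 1 was higher in TKO EB against WT EB (7.66%). Without TKO EB Dutch and 14-14-4, 1 member was higher in TKO EB against TKO ESC (45.0% of all genes called), with a median of 0.011, and 2 were higher in WT EB against WT ESC (47.5%). With the line as a fixed replicate block, 1 member was lower in TKO EB (22.0% of all genes called), and 4 were lower and 0 higher in WT EB (37.4%). As a random block (correlation 0.032) the line changed none of these counts. With 1 array left out, TKO EB against TKO ESC had 0 to 1 members higher and 1 to 7 lower, WT EB against WT ESC had 0 to 2 higher and 4 to 7 lower, and TKO EB against WT EB had 0 to 1 higher. The TKO EB count of falls was 3 without TKO ESC 7-4-1 and 1 without TKO ESC Ta1-12. The cause of these shifts was not tested.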
